A study of Mus musculus with 8 samples.

Results

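The genes described here encode the machinery that copies DNA in S phase, together with the transcription factors and cyclins that switch it on. The 49 members were chosen by name as a functional module, with no measured value in the rule, and all 49 were found once among the 55114 genes of the table. All 49 passed the filter on low counts and were tested among 16109 genes, with no fewer than 127 reads in any mouse. RNA came from intestinal crypts, the epithelial pockets that house intestinal stem cells (ISCs) and their rapidly dividing progeny, of C57BL/6 mice aged 8 weeks. Crypts were released with EDTA from 4 Mex3a KO mice and from 4 littermate controls (WT), and total RNA was sequenced in bulk. The KO is constitutive, with exon 1 and part of exon 2 removed, so Mex3a was missing from every cell type of the mouse and not from the epithelium alone. Mex3a encodes an RNA-binding protein that marks a subset of ISCs, and the comparison asks whether the RNA of the replication machinery differed in crypts that lack it.

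Before S phase, the origin recognition complex, CDC6 and CDT1 load the MCM2-7 helicase onto DNA, and geminin blocks reloading. CDC45, GINS and MCM10 then start the helicase, primase and the polymerases copy the strands, PCNA and its loader hold the polymerases on DNA, and FEN1 and LIG1 join the Okazaki fragments. E2F factors released from RB activate many of these genes as cells commit to division. In the crypt this program runs mainly in transit amplifying cells and cycling ISCs, so in bulk crypt RNA a smaller share of S-phase cells and less RNA per cell cannot be told apart.

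The promoters of many of these genes carry E2F motifs, shown here because these words were more frequent in the members' promoters than in promoters at large. In the RefSeq promoter table of build GRCm38.p6, which covers 250 bases before to 50 bases after each start, 40 of the 49 members had an entry. The words TTTCCCGC, TTTCGCGC, TTTGCCGC and TTTGGCGC were searched on both strands. At least 1 of them was present in 16 of 40 members (40.0%), against 4.47% of 10889 tested genes with a promoter and 2.26% of all 32851 promoters. Matches were densest in origin licensing, in 7 of 9 genes, and absent from all 5 nucleotide supply genes. The 22 matches included 14 that began within 100 bases of the start, and 5 genes had 2 or more. In Mcm5, and at the distal place in Mcm6, a match on each strand overlapped. In the sequences, each 5′ to 3′ on the strand given, capitals mark the E2F word.
Mcm5, + strand of chr8:75109345-75109374: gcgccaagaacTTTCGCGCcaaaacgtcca
Mcm6, - strand of chr1:128359734-128359763: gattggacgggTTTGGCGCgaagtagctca
Mcm6, - strand of chr1:128359797-128359826: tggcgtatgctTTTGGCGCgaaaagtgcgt
Mcm7, - strand of chr5:138171849-138171878: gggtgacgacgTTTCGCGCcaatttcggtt
Mcm3, + strand of chr1:20820275-20820304: acttcccaagtTTTCCCGCcacggaagttt
Orc1, - strand of chr4:108579416-108579445: aggagaaaactTTTCGCGCcactaaccgaa
Cdc6, - strand of chr11:98908002-98908031: accccaggcgaTTTCCCGCtctccaccggc
Cdt1, + strand of chr8:122568036-122568064: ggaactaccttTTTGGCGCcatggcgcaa
Pola1, + strand of chrX:93632275-93632304: gcgggagtgcaTTTGGCGCcctgtgatgac
Lig1, - strand of chr7:13278841-13278870: cgccacacagaTTTCGCGCgcactttggcg
Uhrf1, + strand of chr17:56304117-56304146: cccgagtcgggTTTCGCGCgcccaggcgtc
E2f2, + strand of chr4:136172302-136172323: gcggcatatagTTTGGCGCtaa
E2f3, + strand of chr13:29986056-29986085: cgaaactcagaTTTCCCGCcggcttttcaa

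More common promoter motifs were also frequent among the members. The CCAAT box, the word CCAAT on either strand, was present in 25 of 40 members (62.5%) against 42.6% of the tested genes. The GC box read by SP1, the word GGGCGG, was present in 32 of 40 (80%) against 65.9%. These are matches of letters in a fixed window and say nothing of which factor is bound. The members with an E2F word had a median log2 fold change of -0.038 in KO over WT (13 of 16 below 0). The 24 without one had a median of -0.021 (14 below 0). Over all genes tested the median was -0.016, with 53.9% below 0. These counts come from the fit of all mice, and the direction of the members depended on single mice, as described below.

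Library depth ranged from 20324184 to 30654105 counted reads. Mex3a itself had 269, 236, 327 and 328 reads in the WT mice and 20, 28, 6 and 8 in the KO mice, a log2 fold change of -4.43 ± 0.426 (SE, adjusted p = 0.031 by edgeR's quasi-likelihood test). Replicates 1 and 2 of each genotype carried Y-linked transcripts and replicates 3 and 4 carried Xist. WT mouse 1 stood apart: its Paneth cell markers had the highest mean of the 8 mice (11.8 log2 CPM against 8.79 to 11.1), and 36 of the 49 replication genes were lowest in it (73.5%, against 15.2% of all tested genes). CPM is the read count scaled to the TMM-corrected library size.

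No replication gene changed at an adjusted p under 0.05 by edgeR or DESeq2. Of all 16109 genes tested, 0.00621% did so by edgeR, that is, Mex3a alone, and 93 genes did so by DESeq2. At the unadjusted p under 0.05 that the study used, 0 of 49 members were higher in KO crypts (background 5.33%) and 1 of 49 was lower, Rfc1 (2.04%, background 3.05%). The members' log2 fold changes ran from -0.19 (Orc1) to 0.22 (E2f2), with 40 of 49 within 0.1 of 0 in either direction. The smallest adjusted p among them was 0.579. No member had all KO mice above all WT mice (background 2.17%), and 1 had all KO mice below all WT mice (background 1.87%), again Rfc1.

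**Figure D1:**
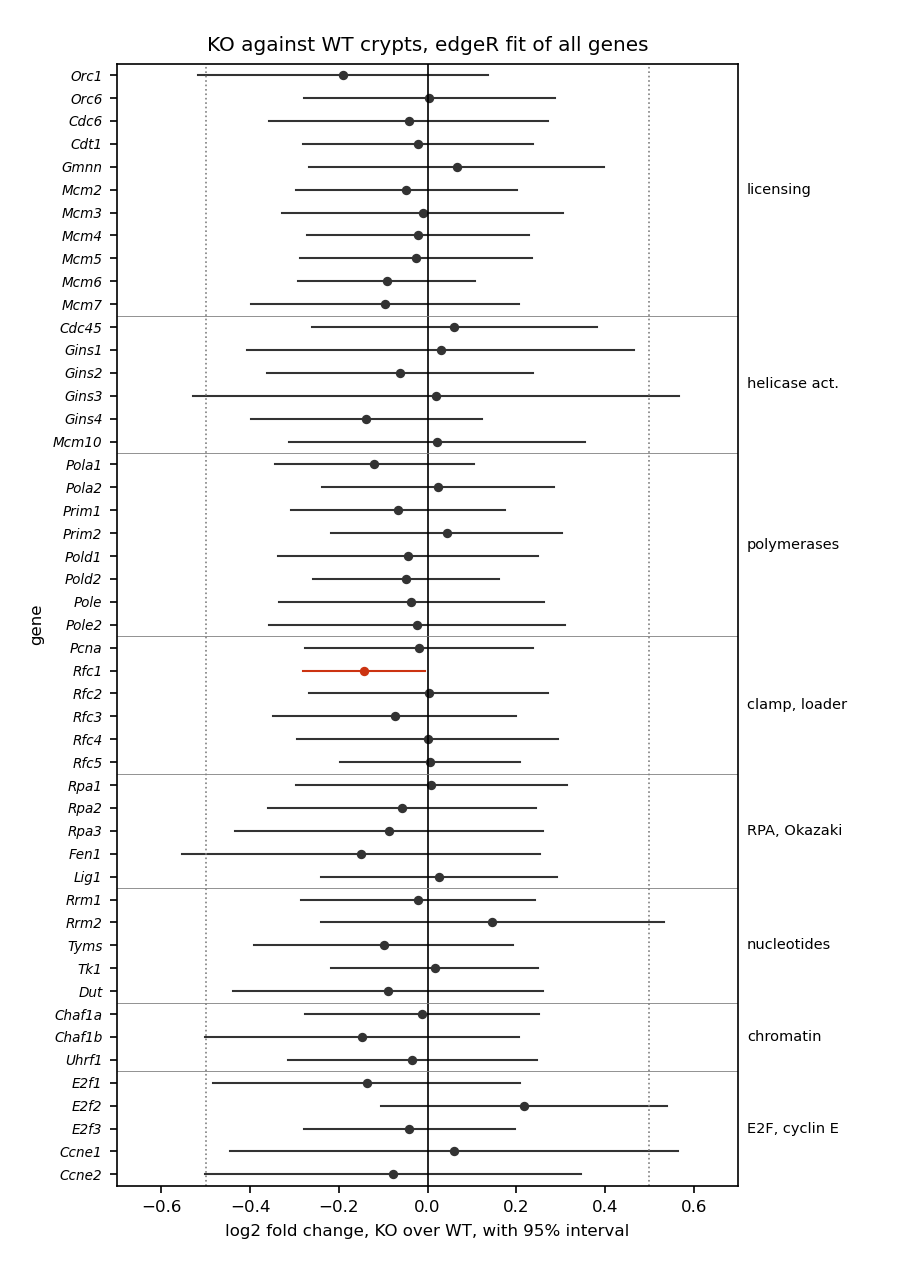
Log2 fold change of each of the 49 replication genes in KO over WT crypts (points) with its 95% interval (lines), grouped by role; dotted lines mark a change of 0.5 on the log2 scale. All intervals except that of Rfc1, drawn in red, include 0, and 41 of 49 lie between the dotted lines.

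The intervals show how large a difference the data could have missed. For 41 of 49 members (83.7%) the whole 95% interval lay within 0.5 of 0 on the log2 scale, a change of 1.41-fold. The same held for 49.6% of all genes tested and for 76.1% of the 9612 genes in the members' own range of 7.14 to 256 CPM. The 8 members whose intervals reached further were Orc1, Gins3, Fen1, Rrm2, Chaf1b, E2f2, Ccne1 and Ccne2. The widest reached from -0.53 to 0.57, in Gins3.

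The direction across the module depended on single mice. The mean log2 CPM of the 49 genes was 5.50, 5.97, 5.90 and 5.70 in WT mice 1 to 4 and 5.89, 5.83, 5.59 and 5.67 in KO mice 1 to 4. The genotypes overlapped, and their means of 5.77 ± 0.212 and 5.75 ± 0.138 (SD, n = 4) differed by -0.024. WT mouse 1 was the lowest of all 8 and WT mouse 2 the highest. In the comparison of all mice, 32 members were lower in KO and 17 higher, with a median log2 fold change of -0.026 against -0.016 for all genes tested. Without WT mouse 1 the number lower became 46 and the difference of the means -0.11, and without WT mouse 2 the number became 15 and the difference 0.044. It was also 46 without KO mouse 1, 19 without WT mouse 3 and 21 without KO mouse 3, so the balance of lower and higher genes turned on which mice were included. In at least 1 of the 8 fits that leave out a mouse, 37 of 49 members changed sign. With 40 of 49 within 0.1 of 0 and no share over all genes at hand, that count is not particular to the module.

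**Figure D2:**
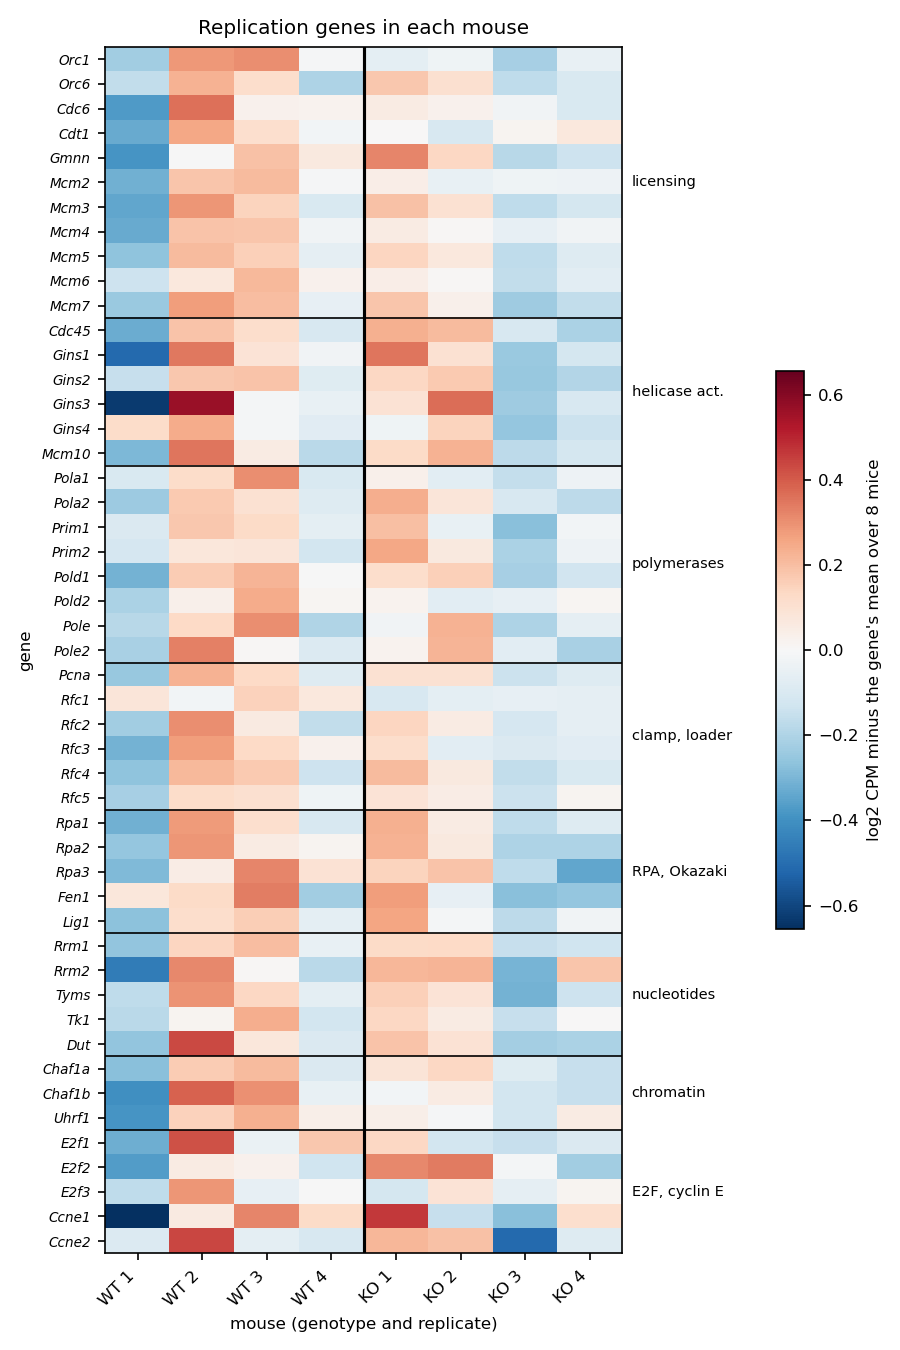
Level of each replication gene in each mouse, as log2 CPM minus the mean of that gene over the 8 mice (red above, blue below), with roles separated by lines. WT mouse 1 is the lowest in 36 of 49 genes, whereas WT mice 2 and 3 are the highest in 40, and no block of color follows genotype.

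The same contrast between mice appeared when mice of equal replicate number were set against each other, although the sources used here do not call them pairs. KO minus WT in the mean of the 49 genes was 0.39 for number 1 (47 genes higher), -0.14 for number 2 (43 lower), -0.31 for number 3 (49 lower) and -0.036 for number 4 (30 lower). Mice with Y-linked transcripts therefore had a difference of 0.12, and mice with Xist a difference of -0.17. The median log2 fold change was 0.11 in the first (40 members higher) and -0.17 in the second (47 lower). The test of that difference, genotype by Xist or Y group in edgeR, gave an unadjusted p under 0.05 for 3 members, Rpa3, Gmnn and E2f2, against 3.82% of all genes, and no adjusted p under 0.974. In each group 2 mice stand on each side, and the Y group holds WT mouse 1, so the group and that mouse cannot be told apart.

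Origin licensing genes load the helicase, and 9 of the 11 were lower in KO, none with an unadjusted p under 0.05, where 53.9% of all genes tested were lower. The number was 3 without WT mouse 2 and 11 without WT mouse 1 or KO mouse 1. Mcm6 (chr1:128331590-128359664 in GRCm38), a helicase subunit and the most abundant of the group by CPM, measured 227, 263, 290 and 255 CPM in WT mice and 258, 251, 224 and 239 CPM in KO mice. The ranges overlapped, with a log2 fold change of -0.092 ± 0.0888 (SE, adjusted p = 0.82) that ran from -0.15 without WT mouse 1 to -0.027 without WT mouse 3. Orc1, the origin complex subunit that comes and goes with the cell cycle, had the smallest p of the group. It measured 8.87, 12.7, 12.8 and 10.4 CPM in WT mice against 9.95, 10.2, 8.96 and 10.1 CPM in KO mice. WT mice 2 and 3 lay above all other mice, and the log2 fold change was -0.19 ± 0.145 (adjusted p = 0.764), from -0.29 without WT mouse 1 to -0.11 without WT mouse 3. The loading factors Cdc6 and Cdt1 differed by log2 fold changes of -0.042 and -0.021. Gmnn, which encodes the inhibitor geminin, differed by 0.066 over all mice, by 0.41 in the Y group and by -0.29 in the Xist group (adjusted p = 0.974 for the interaction). The other MCM subunits lay between -0.095 for Mcm7 and -0.011 for Mcm3, and Orc6 was at 0.0045.

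Levels scaled to the length of each gene, in FPKM, put the helicase subunits in an order that was much the same in all mice. The length used, 4426 bases for Mcm7, is fixed for a gene and need not be that of its transcript. The order therefore need not be that of transcript copies, here or for the complexes below. Mcm6 averaged 53.5 ± 4.66 FPKM over the 8 mice (SD) and exceeded the next subunit in all 8. Mcm5 at 41.7 and Mcm7 at 41.5 did not differ in order, each being higher in 4 of 8 mice. Mcm3 at 33.2, Mcm4 at 30.9 and Mcm2 at 21 followed, and Mcm3 exceeded Mcm4 in 7 of 8. A processed pseudogene, Gm5487, matches 72.8% of the Mcm7 transcript at 97.7% identity, so the count of Mcm7 may have gained or lost shared reads.

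**Figure D3:**
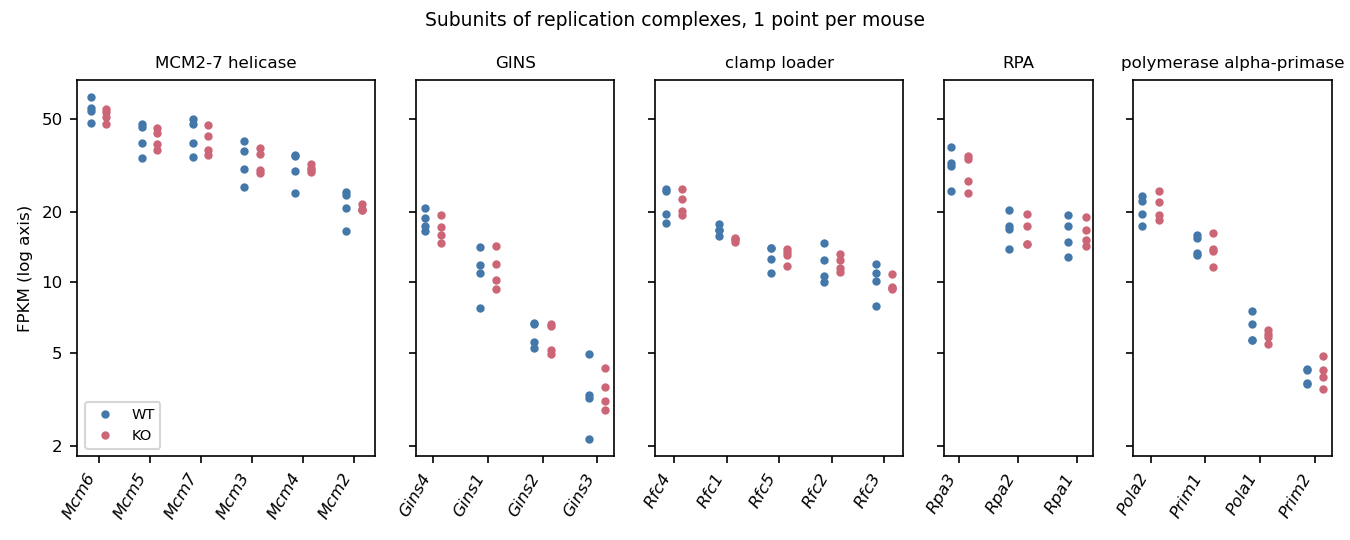
FPKM of the subunits of 5 replication complexes on a log axis, 1 point per mouse, WT in blue and KO in red. Mcm6 exceeds Mcm2 by 2.54-fold and Gins4 exceeds Gins3 by 5.14-fold in mean FPKM, and WT and KO points overlap in each subunit but Rfc1.

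Genes for helicase activation gave log2 fold changes from -0.14 to 0.061, 4 of 6 above 0. The number below 0 was 1 without KO mouse 3 and 6 without WT mouse 1. Mcm10, which helps the loaded helicase open DNA, measured 56.4, 88.3, 71.7 and 61.2 CPM in WT mice and 75.5, 81.1, 61.4 and 63.7 CPM in KO mice. WT mice 1 and 2 bracketed all KO mice, and the log2 fold change was 0.021 ± 0.148 (SE, adjusted p = 0.984). Gins4, a GINS subunit with the smallest p of the group, measured 25.8, 28.1, 23.5 and 22.5 CPM in WT mice and 23.2, 26.2, 19.9 and 21.5 CPM in KO mice. The log2 fold change was -0.14 ± 0.116 (adjusted p = 0.79), with overlapping genotypes, and ran from -0.21 without KO mouse 2 to -0.076 without WT mouse 2. Cdc45 differed by 0.061, and Gins1, Gins2 and Gins3 by 0.030, -0.062 and 0.019. By FPKM the order was Gins4 (17.6), Gins1 (11.3), Gins2 (5.92) and Gins3 (3.42), which held in each of the 8 mice. Gins2 shares 67.3% of its exon bases with Gse1 on the opposite strand, and whether counting used strand is not given in the sources used here.

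Among polymerases and primase, 6 of 8 genes were lower in KO (3 without WT mouse 3 or KO mouse 3, 8 without KO mouse 1), and none had an unadjusted p under 0.05. Pold2, a subunit of the lagging-strand polymerase delta, measured 97.4, 115, 133 and 113 CPM in WT mice and 114, 107, 109 and 114 CPM in KO mice. KO mice lay between the WT extremes, with a log2 fold change of -0.049 ± 0.093 (SE, adjusted p = 0.933). Pola1, the catalytic subunit of the polymerase that extends primers, measured 50.4, 58.6, 66.8 and 50.4 CPM in WT mice against 55.3, 51.5, 48.4 and 52.9 CPM in KO mice. Its log2 fold change was -0.12 ± 0.0999 (adjusted p = 0.788), and -0.025 without WT mouse 3, the highest of the 8. Pole and Pole2, subunits of the leading-strand polymerase epsilon, differed by -0.036 and -0.024. The catalytic subunit of delta, Pold1, differed by -0.044. The primase genes Prim1 and Prim2 differed by -0.066 and 0.043, and Pola2 by 0.023. By FPKM Pola2 (20.9) exceeded Prim1 (14.1), Pola1 (6.13) and Prim2 (4.04), in that order in each of the 8 mice.

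The clamp and its loader hold the one member below the unadjusted threshold. Rfc1 (chr5:65261850-65335670 in GRCm38), the large subunit of the clamp loader, measured 102, 95.5, 107 and 101 CPM in WT mice and 89.9, 92.4, 93.2 and 92.7 CPM in KO mice. Every KO mouse was below every WT mouse, by a log2 fold change of -0.14 ± 0.0607 (SE, 95% interval -0.28 to -0.0067, adjusted p = 0.579). Rfc1 had the smallest range over the 8 mice of all 49 members, 0.257 on the log2 scale against a median of 0.534. It was also among the 13 members not lowest in WT mouse 1. In the fit blocked by replicate number its unadjusted p was no longer under 0.05 (log2 fold change -0.14, adjusted p = 0.476). When 1 mouse was left out it stayed under 0.05 in 1 of 8 fits, that without WT mouse 2, and the log2 fold change ran from -0.17 to -0.11.

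The other loader subunits were close to 0, with log2 fold changes of 0.0025 for Rfc2, -0.074 for Rfc3, 0.00085 for Rfc4 and 0.0058 for Rfc5. By FPKM Rfc4 (21.8) exceeded Rfc1 (16.0), Rfc5 (13), Rfc2 (12) and Rfc3 (10.0). That order held in each of the 8 mice except that Rfc5 exceeded Rfc2 in 7. Pcna, the sliding clamp and a widely used proliferation marker, measured 214, 298, 279 and 241 CPM in WT mice and 273, 273, 231 and 240 CPM in KO mice. WT mice held both the lowest and the highest value, and the log2 fold change was -0.020 ± 0.114 (adjusted p = 0.983). The pseudogene Pcna-ps2 matches 51.4% of the Pcna transcript at 99.2% identity, so shared reads cannot be assigned with certainty.

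Single-strand binding and Okazaki fragment genes were lower in KO in 3 of 5 cases, in 1 without KO mouse 4 and in 5 without WT mouse 1 or KO mouse 1. Lig1, the ligase that seals Okazaki fragments, measured 102, 134, 138 and 118 CPM in WT mice and 147, 122, 110 and 121 CPM in KO mice. KO mouse 1 was the highest and WT mouse 1 the lowest, and the log2 fold change was 0.025 ± 0.119 (SE, adjusted p = 0.978). Fen1, the flap nuclease, was the scarcest member by CPM, at 7.44, 7.71, 8.89 and 6.02 CPM in WT mice and 8.52, 6.79, 5.84 and 5.92 CPM in KO mice. The log2 fold change was -0.15 ± 0.179 (adjusted p = 0.865), and ran from -0.28 without KO mouse 1 to -0.053 without WT mouse 3.

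The count of Fen1 is uncertain. Of its exon bases, 78.8% lie under Gm10143, annotated antisense, which drew 14 to 30 reads in WT and 20 to 32 in KO mice. Fen1 itself drew 144 to 182 and 135 to 203 reads. How reads on overlapping genes were counted is not given in the sources used here. The RPA genes, whose products coat exposed single strands, differed by 0.0085 (Rpa1), -0.057 (Rpa2) and -0.087 (Rpa3). Rpa3 had log2 fold changes of 0.28 in the Y group and -0.46 in the Xist group, a difference with an adjusted p = 0.974 for the interaction.

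Nucleotide supply genes make the building blocks of DNA. Rrm1, the large subunit of ribonucleotide reductase, measured 151, 199, 208 and 175 CPM in WT mice and 197, 198, 163 and 165 CPM in KO mice. The genotypes overlapped, with a log2 fold change of -0.021 ± 0.117 (SE, adjusted p = 0.982). Rrm2, the subunit whose supply limits the enzyme in S phase, measured 57.3, 97.9, 79.3 and 69.8 CPM in WT mice and 91.5, 91.9, 63.8 and 89.3 CPM in KO mice. Its log2 fold change of 0.15 ± 0.172 (adjusted p = 0.862) was one of the highest among the members but within the spread of the mice, and it ran from 0.031 without WT mouse 1 to 0.29 without WT mouse 2. Scaled to gene length, Rrm2 (28.8 FPKM) exceeded Rrm1 (16.4 FPKM) in all 8 mice, whereas by CPM Rrm1 was higher in all 8. The lengths used were 2771 bases for Rrm2 and 11012 for Rrm1, so the order depends on them. Tyms and Dut, which make thymidylate and its precursor, differed by -0.099 and -0.089, and Tk1, the thymidine salvage kinase, by 0.016.

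The chromatin genes act behind the fork, and all 3 had negative values, a number that was 1 without WT mouse 2, WT mouse 3 or KO mouse 3. Uhrf1, which recruits DNA methylation to newly copied DNA, measured 132, 192, 203 and 177 CPM in WT mice and 177, 171, 159 and 179 CPM in KO mice. KO mice lay inside the WT range, at a log2 fold change of -0.034 ± 0.125 (SE, adjusted p = 0.972). Chaf1b, a subunit of the histone chaperone CAF-1, measured 29.0, 49.99, 47.1 and 36.9 CPM in WT mice and 37.8, 39.7, 35.2 and 34.4 CPM in KO mice. Its log2 fold change was -0.15 ± 0.158 (adjusted p = 0.843), and -0.28 (unadjusted p under 0.05, adjusted p = 0.718) without WT mouse 1, the lowest of the 8. Without WT mouse 2 it was -0.035. Chaf1a differed by -0.013, and 52.5% of its exon bases lie under Ubxn6 on the opposite strand.

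E2F factors and cyclin E stand at the entry into S phase. E2f3 (chr13:29906575-29986063 in GRCm38), which the study places upstream of Mex3a, measured 32.1, 44.0, 34.7 and 35.9 CPM in WT mice and 33.3, 38.3, 34.6 and 36.4 CPM in KO mice. KO mice lay within the WT range, with a log2 fold change of -0.041 ± 0.106 (SE, 95% interval -0.28 to 0.20, adjusted p = 0.953). E2f2 had the highest log2 fold change of the 49 members and the smallest p of its group. It measured 80.7, 108, 106 and 94.9 CPM in WT mice and 129, 132, 103 and 88.8 CPM in KO mice. KO mice 1 and 2 were above all WT mice and KO mice 3 and 4 were not, at a log2 fold change of 0.22 ± 0.143 (adjusted p = 0.718). Its log2 fold change was 0.47 in the Y group and -0.067 in the Xist group (adjusted p = 0.974 for the interaction). It ran from 0.14 without WT mouse 1 to 0.32 without KO mouse 4 (unadjusted p under 0.05, adjusted p = 0.788).

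E2f1 had a log2 fold change of -0.14 ± 0.154 and the E-type cyclins Ccne1 and Ccne2 had 0.059 ± 0.224 and -0.079 ± 0.188, the E-type cyclins being among the most variable members. Scaled to gene length, E2f2 (21.5 FPKM) exceeded E2f1 (8.39 FPKM) and E2f1 exceeded E2f3 (6.63 FPKM) in all 8 mice.

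**Figure D4:**
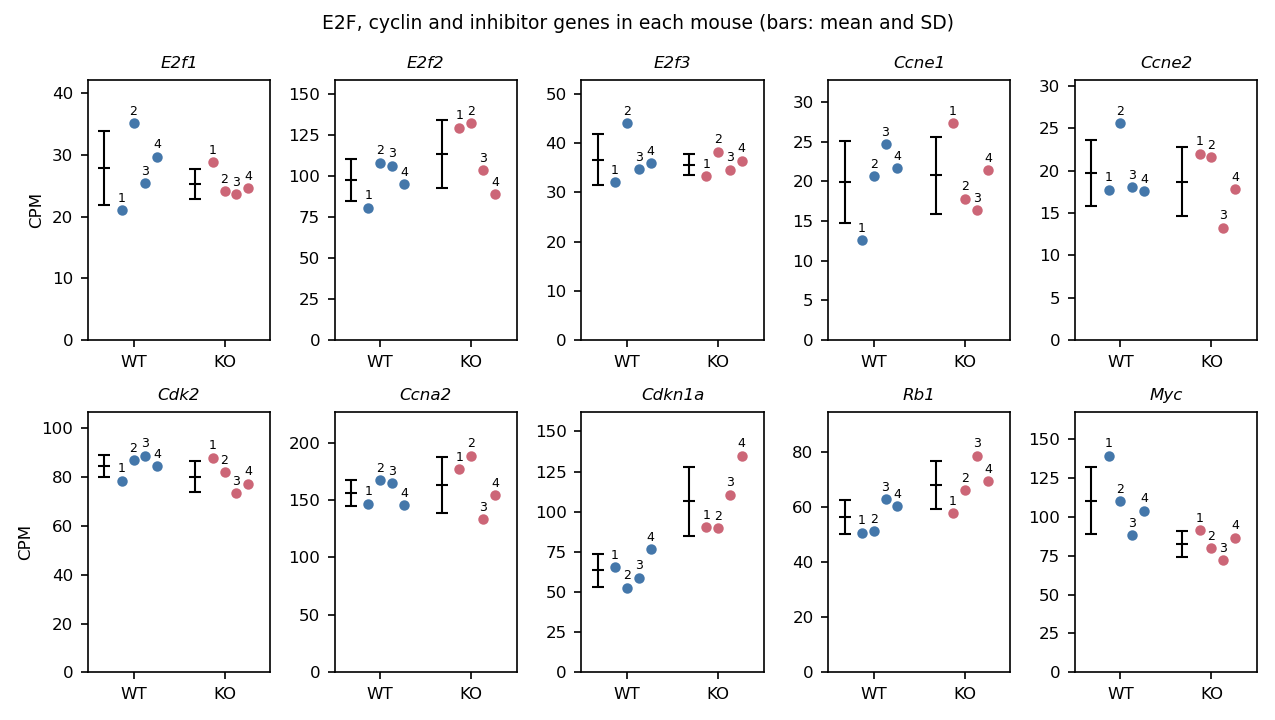
CPM of 5 members (E2f1, E2f2, E2f3, Ccne1, Ccne2) and of 5 other cell cycle genes in each mouse, numbered by replicate, with mean and SD as bars. WT and KO overlap in the E2F, cyclin and Cdk2 panels, whereas all KO mice lie above all WT mice for Cdkn1a.

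Other regulators of S phase, a list of 27 genes of which 26 were tested, held 4 with an unadjusted p under 0.05, 2 higher and 2 lower. None had an adjusted p under 0.05 by edgeR, and 1 did by DESeq2, Cdkn1a. Of all genes tested, 5.33% were higher and 3.05% lower at the unadjusted threshold. At the adjusted threshold 1 of all genes tested passed by edgeR and 93 by DESeq2. Cdkn1a, which encodes the CDK inhibitor p21, measured 65.4, 52.8, 58.9 and 76.7 CPM in WT mice and 90.2, 89.8, 111 and 135 CPM in KO mice. It was higher in all 4 KO mice, by a log2 fold change of 0.75 ± 0.156 (SE, adjusted p = 0.429), and kept an unadjusted p under 0.05 in all 16 alternatives. Its adjusted p ran from 0.00462 by DESeq2, the one alternative past the threshold, to 0.952 without KO mouse 3. Rb1, which encodes the E2F-binding protein RB, was higher by 0.27 ± 0.111 (adjusted p = 0.566). Myc, a growth factor-responsive transcription factor, had -0.42 ± 0.136 (adjusted p = 0.518), and E2f6, a repressor of the E2F family, -0.26 ± 0.0886 (adjusted p = 0.522). Myc stayed under the unadjusted threshold in 16 of 16 alternatives, E2f6 in 15 (not without KO mouse 4) and Rb1 in 12 (not without WT mouse 1, WT mouse 2, KO mouse 3 or KO mouse 4). Near 0 were Cdk2, the kinase partner of cyclin E, with -0.079 (adjusted p = 0.82) and Ccna2, the S and G2 cyclin, with 0.067 (adjusted p = 0.919).

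The remaining replication genes resembled the 49. Of 47 on the list 46 were tested, 29 of them lower and 17 higher, with a median log2 fold change of -0.035. Shmt1, an enzyme of folate metabolism that feeds thymidylate synthesis, was the one with an unadjusted p under 0.05 (-0.24 ± 0.0884, adjusted p = 0.545), which it lost without WT mouse 2, WT mouse 3, KO mouse 2 or KO mouse 3. For G2 and mitosis 0 of 12 markers had an unadjusted p under 0.05, the median was 0.0098, and Mki67 gave -0.10 ± 0.106 (adjusted p = 0.838).

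No marker of a cell type had an adjusted p under 0.05 by edgeR or DESeq2, where 1 and 93 of all genes tested did. The markers were therefore read at the unadjusted p under 0.05, against the 5.33% of all genes that were higher and the 3.05% that were lower. With the replicate number as a block, those shares were 7.14% and 4.13%. Of 8 stem cell markers 5 were lower, in both fits, among them Smoc2 (-0.31, adjusted p = 0.518), Znrf3 (-0.31, adjusted p = 0.518), Olfm4 (-0.34, adjusted p = 0.533) and Lgr5 (-0.50, adjusted p = 0.592). Olfm4 and Smoc2 were lower in all 4 KO mice than in all WT mice, and the other 6 overlapped. The summed level of the 8, most of it Olfm4, was 4442 to 5137 CPM in WT mice and 3319 to 4076 CPM in KO mice.

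Of 12 enterocyte markers 4 were higher (7 with the block), among them Apoa1 (1.78, adjusted p = 0.52), Anpep (1.40, adjusted p = 0.533) and Vil1 (0.59, adjusted p = 0.546). All 12 had positive values, with a median of 0.89 and a sum of 3141 to 6429 CPM in WT and 4384 to 14590 CPM in KO mice. The mean of the enterocyte markers was highest in KO mice 3 and 4, at 9.58 and 8.93 log2 CPM against 7.06 to 8.53 in the other 6 mice. KO mouse 3 had the lowest replication mean of the KO mice. The lowest replication mean of all 8, at 5.50, was that of WT mouse 1, whose enterocyte mean was 7.63. Of 7 goblet markers 2 were higher (4 with the block), Zg16 (0.65, adjusted p = 0.518) and Fcgbp (0.41, adjusted p = 0.518).

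Paneth cell markers had negative values in 7 of 7 genes, 0 under the threshold and 2 with the block (Defa24 and Pla2g2a). They summed to 14890 to 47830 CPM in WT and 7447 to 24170 CPM in KO mice. Pla2g2a overlapped between genotypes, at 3927, 49.5, 1318 and 1767 CPM in WT mice and 1090, 57.1, 63.35 and 74.6 CPM in KO mice. The cause of that spread was not tested. Of 7 enteroendocrine markers Sct was higher (0.36, adjusted p = 0.592), and 0 were with the block. Of the 4 tuft markers tested 0 were under the threshold, and 1 with the block, Dclk1.

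Of 10 immune markers 5 were higher (7 with the block), among them Gzmb (1.40, adjusted p = 0.533), Cd3e (1.60, adjusted p = 0.533) and Cd8a (1.29, adjusted p = 0.546). Their sum of 187 to 538 CPM in WT and 509.5 to 913 CPM in KO mice was mostly Cd74, at 153 to 455 CPM in WT and 426 to 849 CPM in KO mice. Cd3e and Cd8a averaged 0.917 and 3.14 CPM in WT and 2.82 and 7.71 CPM in KO mice, and were highest in KO mice 3 and 4. Stroma markers summed to 10.4 to 21.3 CPM over all mice, with 0 of the 5 tested under the threshold in either fit. The part of these cells in the replication values was not tested.

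**Figure D5:**
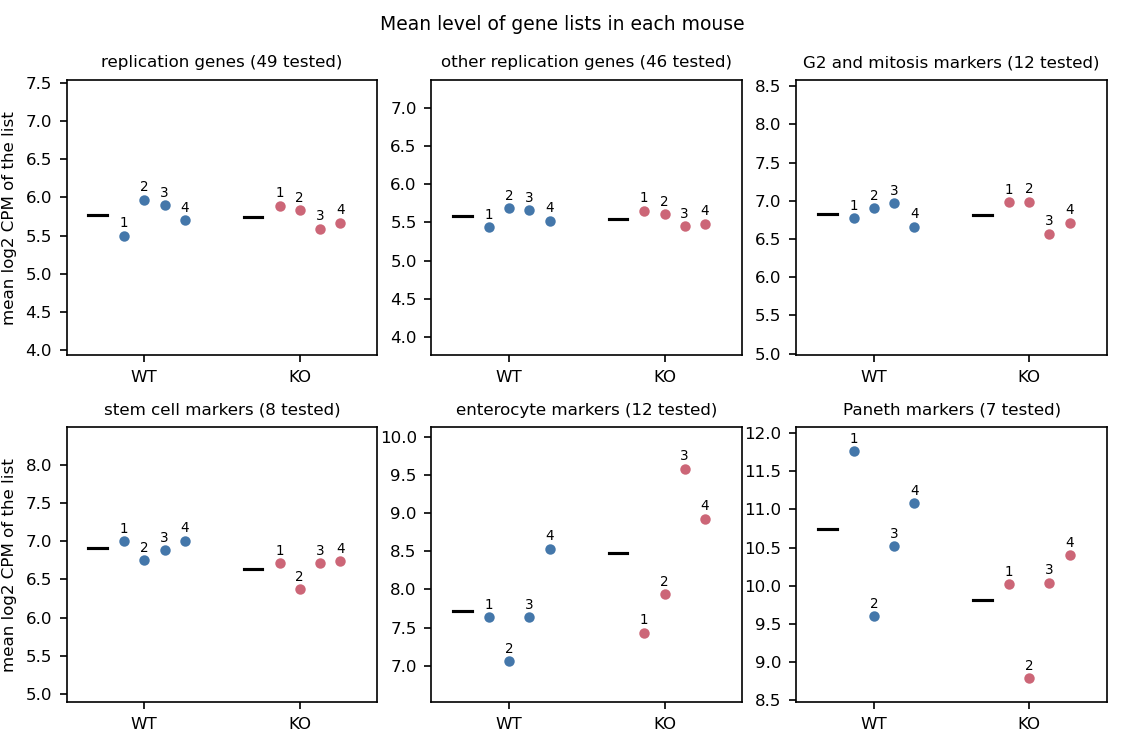
Mean log2 CPM of 6 gene lists in each mouse, numbered by replicate, with the group mean as a bar and the same span on each vertical axis. The replication and mitosis lists stay within a narrow band and overlap between genotypes, while enterocyte and Paneth markers spread over more than the replication lists.

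The MEX3A recognition element, the bipartite RNA word bound by the protein, was searched with gaps of up to 8 bases in the 3′UTR of each gene in GENCODE M21. It was present in 35 of 49 members (71.4%) against 74.3% of 12989 tested genes with such a region. The members' regions were shorter, with a median of 568 bases against 1110, and held 2.59 elements per kilobase against 2.74. Matches that share bases were counted separately in both sets.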

How the data were processed

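RNA of crypts from 4 KO and 4 WT mice was analysed, grouped by the genotype label. The deposited table holds unnormalized counts per gene from the authors, and their FPKM values, scaled for the length of each gene and for depth. Their processing notes name HISAT2 2.0.5, featureCounts 1.5.0-p3 and CASAVA. Columns and files holding the authors' own comparison (fold changes and p-values) were not used.

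Counts were compared with edgeR 4.0.16 in R 4.3.3: filterByExpr (minimum count 10), TMM factors and the quasi-likelihood test, two-sided, with genotype as the only term. Benjamini-Hochberg adjustment covered all 16109 genes, at a threshold of 0.05. The common biological coefficient of variation was 0.237. Standard errors are the log2 fold change over the root of F. With 4 mice per genotype, p-values weigh the difference of the genotypes against the spread between these mice, which edgeR estimates partly across genes. Samples within a genotype differed by more than sampling noise.

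The members and all lists were chosen with earlier results of these data known, so no p is given for a list. Named in full were, per role, the member with the highest mean CPM and that with the smallest p, any member with an unadjusted p under 0.05, E2f3 and Mex3a. From other lists, genes with an unadjusted p under 0.05 were named, at most 3 per direction, and Mki67, Ccna2, Cdk2, Lgr5 and Olfm4. After each genotype's mean was subtracted, mice of equal replicate number correlated at 0.129 to 0.501 over all genes (0.0904 to 0.474 on autosomes). The sources used here do not say that equal numbers mark pairs. The numbers were used as pairs in the replicate block and in the comparison by number, not in the main fit. Mice of equal number also share their Xist or Y group. Alternatives were DESeq2 1.42.0, other scaling factors, no filter, a replicate block, the Xist or Y group as covariate, limma 3.58.1 on log2(FPKM + 1) and log2(FPKM + 0.1) with a mean FPKM of at least 0.5, and leaving out each mouse. The fits were tested on simulated data. Motifs were counted with Python 3.11.15, near copies were found with BLAST 2.17.0 (at least 95% identity over 200 bases), and figures were drawn with matplotlib 3.10.9.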

Additional observations from a re-analysis of the deposited data

Results flagged for a closer look

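Each of the 49 genes was examined in both genotypes for a mouse set apart, with Dixon's test on the gap to the nearest mouse over the range. Of 98 groups of 4 mice, 3 held one. About 4.9 such groups are expected by chance alone. Rfc3, a clamp loader subunit, was highest in KO mouse 1, at 39.0 CPM against 33.8 to 34.4 CPM in the other KO mice (ratio 0.882). Rrm2, the limiting subunit of ribonucleotide reductase, was lowest in KO mouse 3, at 63.8 CPM against 89.3 to 91.9 CPM (ratio 0.906). Ccne2, an E-type cyclin, was highest in WT mouse 2, at 25.6 CPM against 17.5 to 18.1 CPM (ratio 0.935).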

How the results depend on the processing

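No alternative gave a member an adjusted p under 0.05, the smallest running from 0.397 to 0.952. All genes with an adjusted p under 0.05 numbered 1, and 93 by DESeq2, 2 with no filter, 0 with the replicate block, 4 with the Xist or Y covariate and 0 to 4 when 1 mouse was left out. At an unadjusted p under 0.05 all genes ranged from 846 to 2133 when 1 mouse was left out. Members past that threshold were 0 with no filter, with the replicate block and on log2(FPKM + 0.1), and 0 to 1 when 1 mouse was left out. Members lower in KO ran from 15 to 46 in those fits, and the other pathway genes past the threshold from 3 to 7. Of the 49 members, 37 changed sign when some 1 mouse was left out, a count given without a share over all genes. Among members given in full, those that changed were Mcm10 (-0.067 to 0.16), Pold2 (-0.12 to 0.036), Pcna (-0.10 to 0.057), Lig1 (-0.063 to 0.090), Rrm1 (-0.10 to 0.050), Uhrf1 (-0.15 to 0.046) and E2f3 (-0.10 to 0.058). Among the members the replicate block ended the call of Rfc1 and changed no other, and among the S-phase regulators it added Cdk6. Each member had at least 127 reads per mouse. The cause of these shifts was not tested beyond the loss of 1 mouse.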
